A study of Mus musculus with 2 samples.

Results

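Open chromatin is usually described at promoters and in introns, but DNase I also cuts within the coding exons of genes. This account follows 652 such regions, open in both of 2 DNase-seq libraries of mouse frontal cortex, that lay away from promoters and over protein-coding sequence. Overlapping peaks of the longer peak list of each library were joined, and 53623 joined regions held a peak of both libraries. A region was kept if it lay on an autosome, more than 1 kb from every annotated protein-coding transcription start site in GENCODE M21, and had a share of at least 0.5 of its bases in annotated coding sequence (CDS). The 652 coding-exon regions made up 1.93% of the 33863 autosomal shared regions beyond that distance, here called distal, and 1.22% of all shared regions.

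Both libraries came from frontal cortex tissue of 14-day-old male B6CASTF1/J mice, the F1 hybrid of C57BL/6J and CAST/EiJ, and each pooled the tissue of 3 males per the labels. The 2 libraries were separate biosamples that carried the same donor number, so the gap between them may be partly technical. The labels give no treatment and 1 genotype, so no condition was compared, and each value is given per library with the gap between the 2 libraries as its error. The longer lists held 75753 peaks in replicate 1 and 77035 peaks in replicate 2. The tissue label was checked on promoters: 7 of 8 cortical genes, such as Tbr1, had an open promoter in both libraries (Slc17a7 did not), against 0 of 6 genes expressed outside the forebrain, among them Hoxa5 and En1. Open promoters were counted for 2 of 5 interneuron, 2 of 5 astrocyte, 3 of 6 oligodendrocyte-lineage, 1 of 4 microglial and 1 of 3 endothelial markers.

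DNase I cuts DNA where nucleosomes have been displaced, so a peak marks accessible chromatin. Within an accessible stretch, a bound protein shields a few bases from the enzyme and leaves a footprint. Coding exons can serve in this way as regulatory elements (exonic enhancers), as alternative promoters, or as binding sites whose bases also encode amino acids. GC-rich sequence rich in the dinucleotide CpG is typical of promoters, most of which in mammals are unmethylated CpG islands.

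The sequences of 6 of the tallest regions are printed here with their coding bases and footprints. They were read from the mm10 genome (GRCm38.p6), at most the central 300 bases of each region, 5′ to 3′ on the strand of the host gene. Capitals mark bases that lay in a footprint in both libraries. Angptl6 (chr9:20878181-20878480, minus strand) was the tallest of all and had the most footprint bases. Fbxl22 (chr9:66511661-66511960, minus strand), Zfp771 (chr7:127254031-127254330, plus strand) and Synpo2l (chr14:20661061-20661300, minus strand) lay over last coding exons. Def6 (chr17:28226081-28226380, plus strand) and Nos3 (chr5:24383491-24383790, plus strand) lay over internal exons, with coding bases at positions 21 to 219 of Def6 and 40 to 234 of Nos3 and intron around them. The other 4 stretches were coding throughout.
Angptl6: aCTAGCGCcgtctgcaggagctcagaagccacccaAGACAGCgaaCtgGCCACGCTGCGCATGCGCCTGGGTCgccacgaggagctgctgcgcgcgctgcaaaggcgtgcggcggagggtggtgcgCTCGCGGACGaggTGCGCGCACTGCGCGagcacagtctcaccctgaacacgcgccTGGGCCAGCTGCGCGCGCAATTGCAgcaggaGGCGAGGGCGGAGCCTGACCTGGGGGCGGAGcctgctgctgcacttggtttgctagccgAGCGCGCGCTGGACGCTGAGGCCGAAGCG
Fbxl22: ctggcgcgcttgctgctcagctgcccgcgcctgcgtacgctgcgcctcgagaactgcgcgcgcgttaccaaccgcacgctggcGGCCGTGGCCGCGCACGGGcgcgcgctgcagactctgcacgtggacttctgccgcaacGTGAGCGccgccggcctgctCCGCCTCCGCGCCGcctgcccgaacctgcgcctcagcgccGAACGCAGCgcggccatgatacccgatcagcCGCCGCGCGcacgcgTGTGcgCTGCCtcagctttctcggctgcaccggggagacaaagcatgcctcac
Zfp771: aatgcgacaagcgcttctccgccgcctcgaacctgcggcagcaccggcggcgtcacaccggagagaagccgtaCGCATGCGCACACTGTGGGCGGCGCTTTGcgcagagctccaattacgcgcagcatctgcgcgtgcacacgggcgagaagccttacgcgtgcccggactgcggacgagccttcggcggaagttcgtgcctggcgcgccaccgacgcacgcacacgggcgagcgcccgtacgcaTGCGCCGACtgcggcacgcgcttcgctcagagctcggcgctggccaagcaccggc
Synpo2l: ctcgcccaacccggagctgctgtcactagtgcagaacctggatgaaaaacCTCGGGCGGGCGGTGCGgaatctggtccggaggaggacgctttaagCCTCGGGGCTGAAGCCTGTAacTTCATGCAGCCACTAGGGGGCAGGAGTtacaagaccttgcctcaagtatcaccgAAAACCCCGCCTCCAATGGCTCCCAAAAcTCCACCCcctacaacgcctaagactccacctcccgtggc
Def6: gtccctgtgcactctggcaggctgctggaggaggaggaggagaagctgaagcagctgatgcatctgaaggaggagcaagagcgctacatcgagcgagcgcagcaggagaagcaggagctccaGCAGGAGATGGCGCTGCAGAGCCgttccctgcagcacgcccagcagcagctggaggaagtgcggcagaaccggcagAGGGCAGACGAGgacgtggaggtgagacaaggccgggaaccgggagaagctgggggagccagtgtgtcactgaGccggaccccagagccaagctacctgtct
Nos3: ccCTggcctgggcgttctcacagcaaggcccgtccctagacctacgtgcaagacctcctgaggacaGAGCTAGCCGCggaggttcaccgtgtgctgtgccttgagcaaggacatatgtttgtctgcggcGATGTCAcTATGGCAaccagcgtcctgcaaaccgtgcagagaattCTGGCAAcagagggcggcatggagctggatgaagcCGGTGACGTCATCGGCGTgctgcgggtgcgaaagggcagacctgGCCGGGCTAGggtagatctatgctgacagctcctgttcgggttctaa

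In the Angptl6 stretch, 150 of 300 bases lay in footprints of both libraries, and 37 CpG dinucleotides were counted. The letters GCGCNTGCG, the core of the motif of NRF1 (a factor of housekeeping promoters), stood at positions 57 to 65 with all 9 bases in a shared footprint. A second reading on the other strand, 1 base further on, is the same palindrome. The letters GCGNGGGCG of EGR factors (activity-regulated zinc finger proteins) stood at 214 to 222, again with 9 of 9 bases in a shared footprint. The Zfp771 stretch held the NRF1 letters in 2 places, at 74 to 82 with 9 of 9 bases in a shared footprint and at 242 to 250 with 5 of 9. The letters AGNNGGCGC, part of the motif of the insulator protein CTCF, stood on the other strand at 247 to 255 of Zfp771, overlapping the second NRF1 match. In Synpo2l, a longer degenerate core of the CTCF motif stood at 128 to 141, with 14 of 14 bases in a shared footprint. In Def6, AGATGGCGC at 128 to 136 lay wholly in a footprint of both libraries and wholly in coding sequence. In Nos3, TGACGTCA, the cyclic AMP response element (CRE), stood at 213 to 220, with 8 of 8 bases in a shared footprint. In Synpo2l, the GC box letters GGGCGGG stood at 54 to 60, with 7 of 7 bases in a shared footprint. In Angptl6, the letters AGGTCA of nuclear receptors stood on the other strand at 228 to 233, with 6 of 6. The remaining matches in these stretches were covered in part or not at all, except for the E-box match of Angptl6. The NRF1 letters at 27 to 35 of Fbxl22 had 0 of 9 bases in a shared footprint, as did the MEF2 letters at 36 to 44 of Nos3. The E-box letters CAGCTG or CAGATG had 0 of 6 such bases at each of their places in Fbxl22, Zfp771 and Def6, and 6 of 6 in Angptl6. The CTCF letters had 4 of 9 in Angptl6, 6 of 9 in Fbxl22 and 8 of 9 in Zfp771. Positions are counted from 1 at the 5′ end of each printed stretch. A match is a run of letters and does not show which protein was bound.

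The coding-exon regions ranged widely in height, the value that the deposited peak lists give for each peak on a scale that they do not name. The median height was 0.884 in replicate 1 and 0.855 in replicate 2, the values ran from 0.179 to 11.9 and from 0.142 to 12.6, and 316 of the 652 regions were taller in replicate 2. Angptl6, which encodes a secreted angiopoietin-like protein, had heights of 11.9 and 12.6 in replicates 1 and 2 (12.2 ± 0.482, SD, n = 2). Inpp5b, an inositol polyphosphate 5-phosphatase gene, had 7.22 and 8.32 (7.77 ± 0.777, SD, n = 2). Both regions stood above the rest in each library, and Angptl6 stood above Inpp5b in each. Inpp5b stood above the next region, that of Rasip1, by less than its own gap between libraries.

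Rasip1, a Ras-interacting protein of endothelial cells, had heights of 6.96 and 7.23 in replicates 1 and 2. Fbxl22, an F-box adaptor of a ubiquitin ligase, had 6.70 and 6.07, and Zfp771, a C2H2 zinc finger protein, had 5.71 and 5.53. Rasip1, Fbxl22 and Zfp771 kept this order in both libraries. Synpo2l, an actin-associated protein of muscle Z-discs, had 5.15 and 4.38. Slc1a6, the glutamate transporter EAAT4 of cerebellar Purkinje cells, had 4.01 and 4.30. Unc13a, the vesicle-priming protein Munc13-1, had 3.38 and 4.25. Slc1a6 stood above Unc13a in each library, but by less than the gap of Unc13a between libraries. Ctc1, of the telomere-protecting CST complex, had 3.79 and 3.74, and Def6, a guanine nucleotide exchange factor known from T cells, had 3.62 and 3.803. Kdm6b, the histone H3K27 demethylase, had 4.06 and 2.97, and Nos3, the endothelial nitric oxide synthase, had 3.44 and 3.48. Kdm6b had a wider gap between libraries than Ctc1, Def6 or Nos3, and its height spanned those of all 3. In the Kdm6b region, 59.1% of bases were coding. The base with the lowest false discovery rate of cutting lay outside coding sequence at Kdm6b in both libraries and at Unc13a in replicate 1.

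Of the 12 tallest regions, 6 lay over the last coding exon, 2 over the first and 4 over internal exons. All 12 had a GC content over 55% and a footprint in both libraries, and 4 lay wholly in coding sequence. Of all 652 regions, 28.4% lay over the last coding exon, 54.8% over internal exons and 5.67% over the first. A footprint in both libraries was present in 69.8%, 39.7% lay wholly in coding sequence, and the median GC content was 57.8%. Among regions taller than 1.36 in replicate 1 and 1.24 in replicate 2, 98.6% and 99.4% held a footprint in that library. Start sites of other gene types were close to 4 of the 12: the regions of Rasip1, Kdm6b and Nos3 each held the start of an antisense transcript (A030001D20Rik, Kdm6bos and Gm15587), and Inpp5b lay 27 bp from that of Gm12915. Angptl6 lay 1207 bp from the nearest start site of any gene type, and Zfp771 lay 6369 bp from one. Among all 652 regions, 51 lay within 1000 bp of a start site of another gene type, 29 of them antisense, and 26 held one. These counts were not compared with other distal regions, so they do not set coding-exon regions apart.

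**Figure D1:**
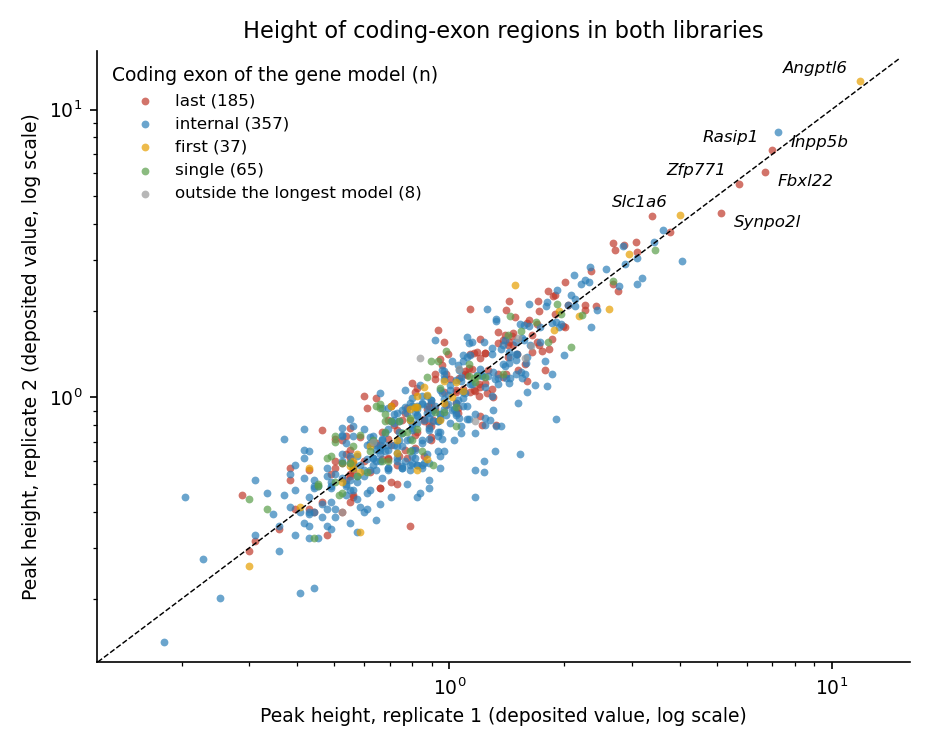
Height of each of the 652 coding-exon regions in replicate 1 (x axis) and replicate 2 (y axis), deposited values on log scales, coloured by the coding exon of the gene model; the dashed line marks equal heights. Angptl6, at 11.9 and 12.6, stands alone at the top, and the points follow the line with a Spearman correlation of 0.883.

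The heights of the 2 libraries ranked the regions alike, with a Spearman correlation of 0.883 and a Pearson correlation of 0.91 on the log2 scale across 652 regions that share 2 libraries. The median log2 difference, replicate 2 minus replicate 1, was -0.01, and 95% of regions lay between -0.77 and 0.62. In 9 regions the ratio of the libraries lay over 2-fold away from its median. The widest departures, picked after the values were seen, were Myo16 (an unconventional myosin), with 1.17 and 0.450 in replicates 1 and 2, and Ushbp1, with 0.203 and 0.450. The bases with the lowest false discovery rate of cutting in the 2 libraries lay a median of 19 bp apart. That base lay in coding sequence in 91.9% of regions in replicate 1 and in 91.3% in replicate 2. In the 393 regions that also had non-coding bases, it lay in coding sequence in 86.5% and 85.5%, whereas 70.7% of their bases were coding. Where the non-coding bases lie within such regions was not measured. The part of position within the region in this difference was not tested.

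As a class, coding-exon regions were of about the height of other distal regions. Median heights in replicate 1 were 0.884 for coding-exon, 0.967 for intronic and 0.896 for intergenic regions, and in replicate 2 they were 0.855, 0.867 and 0.826. The ratio of coding-exon to intronic medians was 0.914 in replicate 1 and 0.986 in replicate 2, a gap between libraries about as large as their distance from 1. Intronic regions here lay inside a protein-coding gene with no base in any exon (12991 regions), and intergenic regions lay outside all protein-coding genes (18561 regions). Promoter regions, within 1 kb of a protein-coding start site, were taller, with medians of 1.77 and 1.78, so that coding-exon regions reached a ratio of 0.50 and 0.481 to them. In bulk tissue, opening in fewer cells and weaker opening in each cell cannot be told apart.

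Median height rose from class to class of GC content in the intronic and intergenic groups, and in coding-exon regions except between the 2 lowest classes of replicate 1 (0.80 and 0.788). At matched GC content the coding-exon regions were lower than the intronic ones. Between 55% and 60% GC, the coding-exon median was 0.872 in replicate 1 and 0.859 in replicate 2, against 1.05 and 1.07 for intronic regions. The ratio to intronic regions lay between 0.789 and 0.893 in replicate 1 and between 0.805 and 0.862 in replicate 2 over 5 GC classes, below 1 in every class of both libraries. Coding-exon regions were also less often in the shorter peak list of each library, with 49.4% and 51.2% in replicates 1 and 2, against 61.8% and 54.8% of intronic regions. The difference was larger in replicate 1 than in replicate 2.

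**Figure D2:**
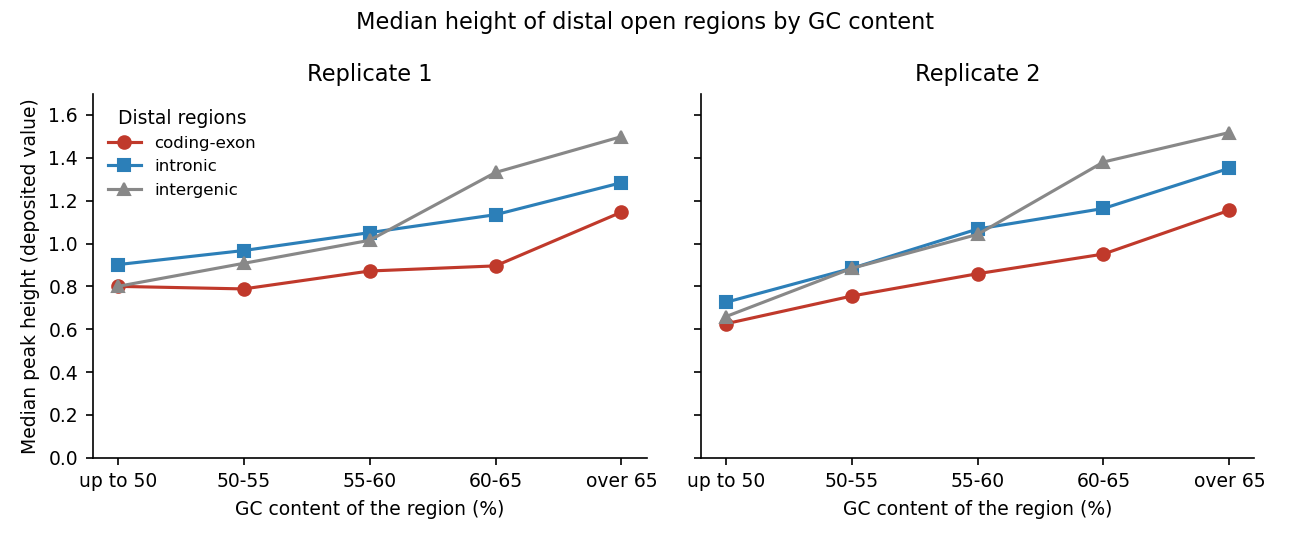
Median peak height (y axis, deposited value) of coding-exon, intronic and intergenic distal regions in 5 classes of GC content (x axis, %), for each replicate. The coding-exon line lies below the intronic line in every class of both replicates, for example at 0.872 against 1.05 between 55% and 60% GC in replicate 1.

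Coding-exon regions were GC-rich, between other distal regions and promoters. Their median GC content was 57.8%, against 51.8% for intronic, 51.3% for intergenic and 63.2% for promoter regions. Their median ratio of observed to expected CpG was 0.50, against 0.25, 0.281 and 0.752. A composition usual for CpG islands, GC over 55% with a CpG ratio over 0.6, was found in 222 coding-exon regions (34.0%), against 1.98% of intronic, 5.24% of intergenic and 65.6% of promoter regions. Coding sequence itself is GC-rich, with 51.9% GC over all autosomal CDS, so the regions were also set against other coding sequence of the same genes that had no peak in either library. In 573 host genes with at least 200 bp of such sequence, the median GC content was 58.3% for the coding bases in open regions and 53.9% for the rest. It was higher in the open bases in 443 genes (77.3%), by a median of 3.96 percentage points over all 573. The open coding bases had a median of 4.02 CpG per 100 bp, against 3.04 in the rest.

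**Figure D3:**
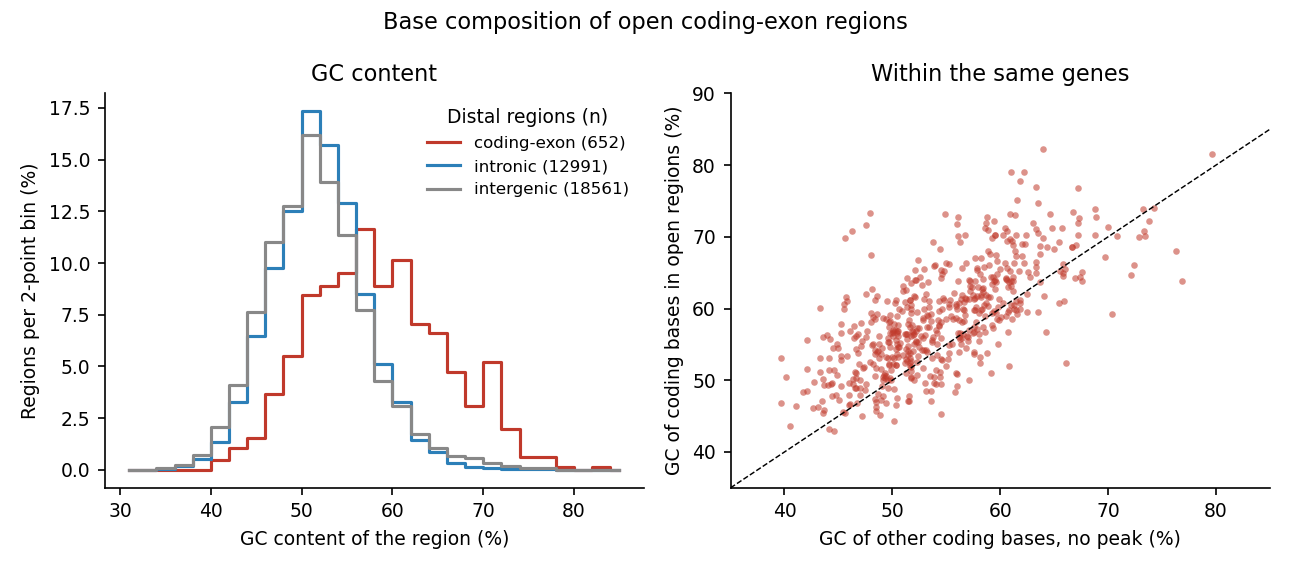
Left, share of regions (y axis, %) in 2-point bins of GC content (x axis) for coding-exon, intronic and intergenic distal regions. Right, GC content of the coding bases in open regions (y axis) against other coding bases of the same gene without a peak (x axis), 1 point for each of 573 genes; 443 points lie above the dashed line of equality.

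The extremes of composition were far apart. Nrg2, a neuregulin growth factor gene, had 82.3% GC over its last coding exon, with heights of 2.76 and 2.34 in replicates 1 and 2. Ano8, of the anoctamin family, had 79.1%, and Epha10, an ephrin receptor, had 77.2%. At the other end were Cers3, a ceramide synthase of skin, with 40.4%, Ptprq, a phosphatase of inner ear hair cells, with 41.1%, and Yipf7 with 41.8%. Cers3 had heights of 0.346 and 0.392, and Yipf7 had 0.561 and 0.567, both below the median of all members in each library. Across the 652 regions, mean height had a Spearman correlation of 0.30 with GC content, 0.247 with the CpG ratio and 0.382 with width, regions that share the same 2 libraries.

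Open coding-exon regions exceeded their share of coding bases in single, last and first coding exons, and fell short of it in internal exons. In the gene model with the longest CDS, 185 regions (28.4%) lay over the last coding exon, 357 (54.8%) over internal exons, 37 (5.67%) over the first and 65 (9.97%) over the only coding exon, and 8 lay outside the model. Of the coding bases over 1 kb from start sites, 18.7% were in last, 72.5% in internal, 4.04% in first and 4.68% in single coding exons. In 5 equal parts from start to stop codon, the regions' shares were 9.94%, 17.1%, 20.2%, 25.6% and 27.2%, against 14.985%, 19.8%, 20.9%, 21.5% and 22.9% of those coding bases. The rule itself disfavours short exons, since a region of the median width of 240 bp needs coding bases over a large stretch. Exons up to 150 bp long held 16.5% of the regions and 35.8% of the coding bases, and exons over 1000 bp held 22.7% and 16.8%.

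Position was therefore also compared within classes of exon length. In exons of up to 300 coding bp, there were 38.2 regions per Mb of coding sequence in last exons and 18.9 in internal exons. In exons of 300 to 1000 bp there were 53.9 in last and 29.1 in internal exons, and in longer exons 31.3 and 24.96. First exons held 61.1 per Mb at 300 to 1000 bp and 41.4 above that, and single exons held 53.4 and 59.6, so that last exons were not the densest class in longer exons. Only internal exons were below the other 3 positions in both of these length classes. In exons of up to 300 bp, first exons held 10.5 per Mb from 3 regions, and single exons held none. Last-exon regions were also taller than internal ones, with medians of 1.00 and 1.04 in replicates 1 and 2, against 0.848 and 0.792. Their GC content was higher too, with a median of 61.5% against 55.4%, and the part of composition in the height difference was not tested. In exons over 1000 bp the heights of the classes did not differ in this way, with 0.979 and 0.959 for last exons and 0.979 and 0.909 for internal exons.

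**Figure D4:**
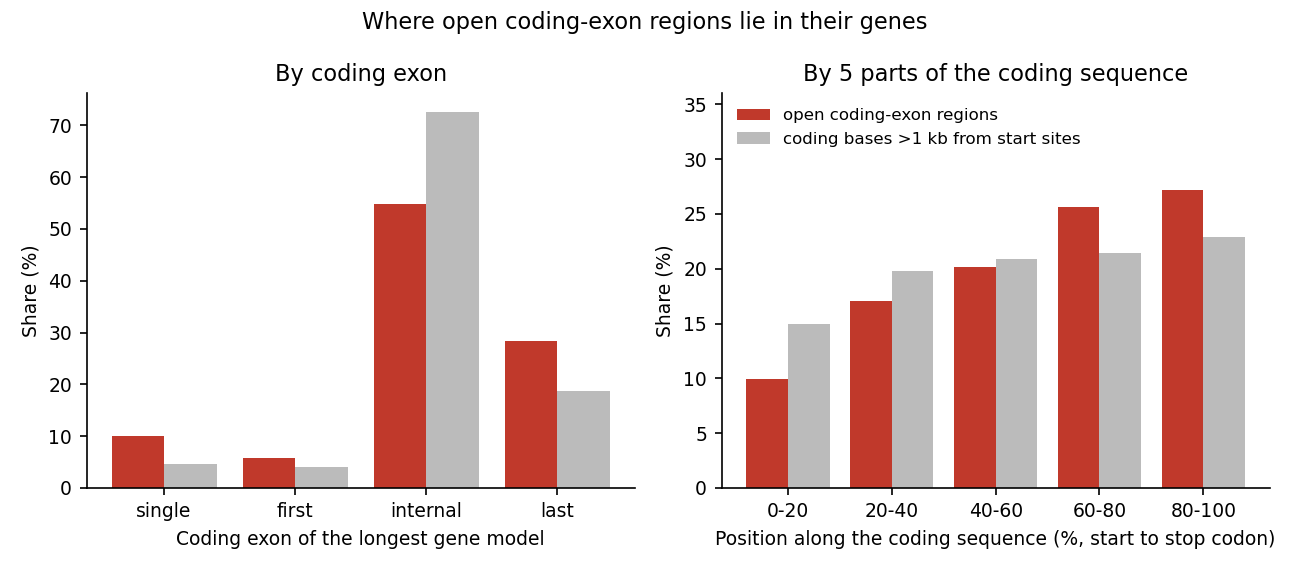
Share (y axis, %) of open coding-exon regions and of coding bases over 1 kb from start sites, by coding exon of the longest gene model (left) and by 5 equal parts of the coding sequence (right). Regions exceed coding bases in single, first and last exons (28.4% against 18.7% in last exons) and in the 20% of the coding sequence before the stop codon (27.2% against 22.9%).

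The start codon was in 14 regions, a number that the rule on distance from start sites keeps low, and the stop codon was in 66 (10.1%). Of the 652, 252 lay inside 1 exon, 118 covered a whole coding exon, 235 covered a splice acceptor and 210 a splice donor, and 313 covered neither. The regions had a median of 86.9% coding bases, and 259 were entirely coding. The 3 regions just inside the limit, Grip1, Vrk1 and Gm815, had 50% coding bases and heights of 1.29, 2.14 and 0.80 in replicate 1 and 1.01, 2.19 and 1.12 in replicate 2. Just outside it were Ebi3 with 49.6%, Myo7a with 49.4% and Dnaic1 with 49.2%, whose heights were 2.14, 0.74 and 1.86 in replicate 1 and 2.52, 0.467 and 1.92 in replicate 2.

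Regions near promoters were richer in GC than those far from them. The regions lay a median of 4857 bp from the nearest protein-coding start site, 163 of them within 2000 bp and 200 beyond 10000 bp. The 163 nearest had a median GC content of 61.1% and heights of 0.86 and 0.926 in replicates 1 and 2. The 200 farthest had 54.6% and heights of 0.788 and 0.755. Against intronic regions at the same distance, the height ratio was 0.791 and 0.91 for the nearest and 0.857 and 0.933 for the farthest. Intronic regions had the same order of GC content, with medians of 53.9% within 2000 bp and 51.3% beyond 10000 bp.

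Footprints were found in most regions. In replicate 1, 76.1% of coding-exon regions held at least 1 footprint, against 82.8% of intronic regions, and in replicate 2, 87.7% against 89.0%. A footprint in both libraries was present in 455 regions (69.8%), footprints of the 2 libraries overlapped by at least 1 bp in 342 (52.5%), and 39 (5.98%) had none. Among intronic regions the same shares were 76.1%, 58.7% and 4.28%. Footprints are easier to call in tall regions, so they were also compared by height. In the lowest height quartile of intronic regions, 45.4% of coding-exon and 53.9% of intronic regions held one in replicate 1, and 69.2% and 68.5% in replicate 2. In the highest quartile the shares were 98.6% and 99.3% in replicate 1, and 99.4% and 99.5% in replicate 2. In the second quartile the shares were 84.2% and 82.5% in replicate 1, and 88.4% and 92.0% in replicate 2. In the third quartile they were 92.7% and 96.2% in replicate 1, and 96.8% and 97.0% in replicate 2. So the order of the 2 groups differed between the libraries in the lowest and in the second quartile.

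Per 100 bp, footprints covered 8.83 coding and 6.19 non-coding bases in replicate 1, and 12.7 and 9.45 in replicate 2. Where the non-coding bases lie was not measured, and the part of position within the region in this difference was not tested. The median footprint was 9 bp long in both libraries. After Angptl6, with 162 footprint bases shared by both libraries over its whole 380 bp, came Klf1, an erythroid transcription factor, with 100, and Synpo2l with 99. Gdf15, a stress-induced cytokine, had 81, and Exoc3l2, an exocyst-related gene, had 76. Klf1 had heights of 3.09 and 2.49 in replicates 1 and 2, and Gdf15 had 2.68 and 3.44, whereas Exoc3l2 was lower, at 1.505 and 1.41, over a width of 620 bp.

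**Figure D5:**
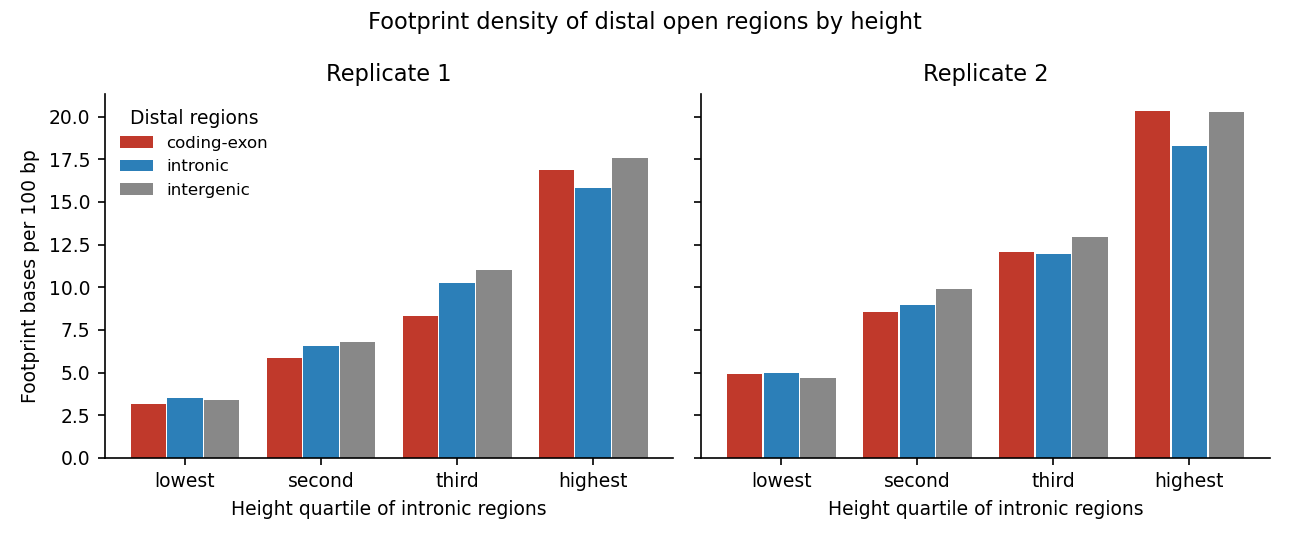
Footprint bases per 100 bp (y axis) in coding-exon, intronic and intergenic distal regions, by height quartile of the intronic regions (x axis), for each replicate. Density rises with height in every group; coding-exon regions lie below intronic ones in the 3 lower quartiles of replicate 1 and the 2 lower ones of replicate 2, and above them in the highest (16.9 against 15.8 and 20.3 against 18.3), where intergenic regions reach 17.6 in replicate 1.

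Short runs of letters known from factor motifs differed in frequency along with base composition. Each was searched on both strands of the whole region, and the same letters in reverse order served as a reference. AGNNGGCGC (CTCF) was in 139 coding-exon regions (21.3%), against 6.75% of intronic and 9.20% of intergenic regions, and its reversed letters were in 3.99%, against 0.462% of intronic regions. Its share in coding-exon regions was 9.20% up to 50% GC and 45.8% over 65% GC, against 6.29% and 11.4% of intronic regions. The degenerate CTCF core, which does not require CpG, was in 30 coding-exon regions (4.60%), against 6.09% of intronic and 7.08% of intergenic regions. So over all regions the shorter letters were more frequent in coding exons and the degenerate core was less so, and the 2 searches do not give 1 order. Within GC classes the core was mixed, on 4 to 9 coding-exon regions per class. Against intronic regions, it was in 4.60% and 7.07% up to 50% GC, and in 4.07% and 5.33% between 55% and 60%. It was in 6.52% and 5.92% between 50% and 55%, 3.70% and 3.40% between 60% and 65%, and 4.17% and 3.79% over 65%. Of matches to the core, 15 of 30 lay in a footprint of both libraries in coding-exon regions (50%), against 65.6% in intronic regions.

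GCGCNTGCG (NRF1) was in 42 coding-exon regions (6.44%), against 0.693% of intronic and 1.24% of intergenic regions. Its reversed letters were in 2.45%, against 0.162%, so that they too were more frequent in coding exons. Of its matches, 39.6% lay in a footprint of both libraries in coding-exon regions, against 49.6% in intronic regions. Regions with the NRF1 letters were taller, with medians of 1.53 and 1.497 in replicates 1 and 2, against 0.86 and 0.834 without it, and had a median GC content of 66.4%. GCGNGGGCG (EGR) was in 4.75%, against 0.608%, with its reversed letters in 5.98% and 0.50%. CAGCTG, an E-box bound by basic helix-loop-helix factors, was in 33.1%, against 26.1% of intronic regions, with its reversed letters in 1.38% and 0.639%. Its neuronal form CAGATG was in 27.9%, against 29.4%, with its reversed letters in 6.13% and 5.10%. Some letters were less frequent in coding exons. TGANTCA of AP-1 was in 6.13%, against 12.6% of intronic regions, and CTANNNNTA of MEF2 was in 9.51%, against 17.1%. ATGCAAAT of POU factors was in 0.46% (3 regions), against 1.72%. The reversed letters stood at 16.1%, against 18.8%, for MEF2, at 3.99%, against 5.52%, for AP-1, and at 0%, against 0.0462%, for POU. ACAATGG of SOX factors was in 3.07% (20 regions), between 2.66% of intronic and 3.16% of intergenic regions. Its reversed letters were in 1.69%, against 1.76% of intronic regions.

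The regions were spread over 599 genes, 2.88% of the 20807 autosomal protein-coding genes with CDS. Of these genes, 558 had 1 region, 35 had 2 and 6 had more. Tchh, which encodes the hair follicle protein trichohyalin, had 7 along its second coding exon, with heights from 0.287 to 1.65 in replicate 1 and from 0.40 to 1.44 in replicate 2. Casz1, a zinc finger transcription factor, had 4, all in the last of 18 coding exons, with heights from 0.549 to 0.979 and from 0.659 to 0.942. Syne1, the nuclear envelope protein nesprin-1, had 4 in exons 42, 54, 59 and 124 of 145. Dst, the cytoskeletal linker dystonin, had 3 in exons 39 and 56 of 103. Lor, the loricrin of the skin barrier, had 3 in its only coding exon, with heights from 0.502 to 1.39 and from 0.701 to 1.20. Regions of the same gene share its sequence composition and are not independent. Tchh and Lor encode repeated sequence, and the part of read mapping in their peaks was not tested.

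Gene families were counted by symbol and set beside all genes, which had 26.4 regions per Mb of coding sequence over 1 kb from start sites. Ion channels and receptors had 17 regions in 15 of 178 genes (50.02 per Mb), led by Cacna1s, a calcium channel of skeletal muscle, with heights of 2.87 and 3.38 in replicates 1 and 2, and Kcng3, a potassium channel subunit, with 1.58 and 1.31. Developmental transcription factors had 10 regions in 9 of 165 genes (68.6 per Mb), led by Sox8 with 1.85 and 1.60 and the pituitary factor Pou1f1 with 1.73 and 1.55. Chromatin regulators had 11 regions in 10 of 76 genes (45.4 per Mb), led by Kdm6b and then by Chd9, a remodeller, with 1.42 and 1.38. Cadherins outside the protocadherin clusters had 8 regions in 6 of 42 genes (48.5 per Mb), led by Fat4 with 1.93 and 1.99 and Pcdh17 with 1.04 and 1.13. These counts are small, and no test was run on them.

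Axon guidance genes had 6 regions in 6 of 67 genes (40.3 per Mb), led by Sema4b with heights of 1.13 and 1.11 in replicates 1 and 2 and Robo3 with 1.00 and 1.10. Genes of myosins, kinesins and dyneins had 16 in 14 of 99 genes (32.0 per Mb), led by Myo3b, a myosin of sensory cells, with 3.10 and 3.04 and Kif26b with 1.56 and 1.78. Synaptic scaffold genes had 2 in 2 of 20 genes (28.8 per Mb), at Dlgap3 with 1.10 and 1.23 and Rims1 with 0.633 and 0.617. Cytoskeletal linkers had 4 regions in 2 of 21 genes (20.6 per Mb, below the rate of all genes), led by Sptbn4 with 1.59 and 1.32. Immediate early genes, which neurons switch on with activity, had 2 regions in 2 of 17 genes (150.1 per Mb, from 0.0133 Mb), at Jun with 2.08 and 1.501 and at Egr4 with 0.502 and 0.60. Jun lay 1102 bp from its nearest protein-coding start site and Egr4 lay 1115 bp away.

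Zinc finger genes with Zfp, Zbtb, Zkscan, Zscan or Znf symbols and clustered protocadherins had fewer regions per Mb than genes as a whole. The zinc finger genes with these symbols had 11 regions in 11 of 455 genes (14.7 per Mb), led by Zfp771 and by Zfp219 with heights of 2.21 and 2.47 in replicates 1 and 2. Zinc finger genes with other symbols, such as Casz1 with its 4 regions, were not counted here. The clustered protocadherins had 1 region in 57 genes (10.4 per Mb, from 0.0966 Mb), at Pcdhga12, with 0.872 and 1.02. Regions in single-coding-exon genes or in these zinc finger or clustered protocadherin genes together came to 77 (11.8%). This share depended on the rule, with 23.6% among regions wholly in CDS and 6.95% among those over 2000 bp from start sites. Single coding exons held 9.97% of the regions and 4.68% of the coding bases over 1 kb from start sites. The zinc finger genes held 1.69% and 3.03%, and the clustered protocadherins held 0.153% and 0.392%.

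Of the 599 host genes, 419 (69.9%) had an open promoter in both libraries, against 60.6% of all autosomal protein-coding genes. The other 180 genes held 197 coding-exon regions, whose median heights were 0.92 and 0.917 in replicates 1 and 2, against 0.872 and 0.834 where the promoter was open. Of the 12 tallest regions, 6 lay in such genes, which were Angptl6, Rasip1, Synpo2l, Def6, Kdm6b and Nos3. Cell type marker genes were looked up as well, beside the 2.88% of all genes that held a region. Sox9, 1 of 5 astrocyte markers, had 2 regions, with heights of 0.537 and 0.692 and of 0.597 and 0.601 in replicates 1 and 2. Pdgfra, 1 of 6 markers of oligodendrocytes and their precursors, had 1 region, with 0.788 and 0.834. None lay over the 8 cortical, 5 interneuron, 4 microglial or 3 endothelial marker genes.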

How the data were processed

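DNase-seq peaks of 2 libraries of 1 group were analysed. The peak lists give a height for each peak, a signal value that the authors deposited per library, on mm10 per the file headers. Caller, aligner and scale are not given in the sources used here. Footprint lists carry 1 p-value for every footprint, 0.01, and the cut-rate files hold false discovery rates (q-values) up to 0.05, as deposited. Library depth was not used here, so no interval on counting error is given. Regions were joined where peaks overlapped by at least 1 bp, and a region's height is that of its tallest peak in each library. Coding sequence, start sites and gene models came from GENCODE M21, and sequence from GRCm38.p6. Autosomes only were used. Python 3.11.15, pandas 2.3.3, pysam 0.24.0 and bedtools 2.31.1 did the work, and the overlap code was tested on simulated data.

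With 1 group there was no contrast, so no test was run and regions are never treated as replicates. Named genes were the 12 tallest regions, the 5 genes with most regions, the extremes of GC content and footprint bases, the 2 tallest per gene family and those at the CDS limit; others are marked as picked after their values were seen or belong to the marker lists. The members, families and motifs were chosen with earlier results of these data known. The degenerate CTCF core was added after seeing that the 9 fixed letters miss the Synpo2l site. Reads of the CAST/EiJ allele can map less well to mm10, and the part of this in any height was not tested. The result of 1 gene family is not reported here. The printed sequences are those of the reference genome.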

Additional observations from a re-analysis of the deposited data

How the results depend on the processing

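The number of regions was 397 with a CDS share of at least 0.75, 259 with all bases in CDS and 274 with the shorter peak lists, and stayed within 1.5 times of 652 under the other rules. Using 1 library alone gave 1035 to 1392 regions. The height ratio to intronic regions became 1 in replicate 1 and 1.08 in replicate 2 with the shorter lists, and 1.06 in replicate 2 with a CDS share of at least 0.25. From 1 library alone it was 0.925 in replicate 1 and 0.874 in replicate 2. The GC difference to intronic regions, 6.01 percentage points, was 4.84, 7.78 and 8.86 with CDS shares of at least 0.25, 0.75 and 1. It was 7.09 and 5.15 beyond 500 and 2000 bp, and 6.63 with the shorter lists, so it kept its sign in all of these, with 5.76 to 6.60 from 1 library alone. The share with a footprint in both libraries was 88.3% with the shorter lists. From 1 library's peaks and its own footprints the share with a footprint was 65.02% to 70.6%. The share over last exons was 24.9%, 33.0% and 35.1% with CDS shares of at least 0.25, 0.75 and 1. It was 24.7% and 31.1% beyond 500 and 2000 bp, 28.8% with start sites of all gene types, 27.7% with the shorter lists and 26.9% to 27.2% from 1 library alone. The share in single-coding-exon, zinc finger or clustered protocadherin genes was 8.45%, 17.1% and 23.6% with those CDS shares. It was 16.5% and 6.95% beyond 500 and 2000 bp, 13.5% with the shorter lists and 12.5% to 12.9% from 1 library alone. The causes of these shifts were not tested. No paired analysis was possible because there is only 1 group.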

Other observations

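On chromosome X, 8 regions met the other conditions, at 1 copy of the chromosome in male mice. Their median height was 0.603 in replicate 1 and 0.567 in replicate 2. Mid1, a microtubule-associated ubiquitin ligase, had 1.83 and 2.93 in replicates 1 and 2, and Magix had 1.66 and 1.68. The others lay over Maged1, Gucy2f, Med14, Cd40lg, Tmem29 and Foxo4. Their heights ran from 0.299 to 0.717 in replicate 1 and from 0.242 to 1.09, at Maged1, in replicate 2. In C57BL/6J mice Mid1 spans the pseudoautosomal boundary, and the part of this in its height was not tested.

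Some coding-exon regions were far wider than the median of 240 bp. The 3 widest, picked after their values were seen, were at Mex3b, an RNA-binding protein, with 1820 bp over its last coding exon, at Pcdh17, a protocadherin, with 1340 bp over its first, and at Nhsl1, with 1000 bp over an internal exon of 3252 coding bp. Mex3b had heights of 1.15 and 1.25 in replicates 1 and 2, and Pcdh17 had 1.04 and 1.13, both moderate for the set. Only 37 of 652 regions were wider than 500 bp.

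Within 1000 bp of a protein-coding start site, 943 of 18438 promoter regions also had a CDS share of at least 0.5. These were left out by the rule on distance, and outnumber the 652 coding-exon regions described here.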
